A study of Homo sapiens with 39 samples.

Results

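MATN2, SLC38A4 and ADAM7 are 3 genes of the 63187 in a count table of C4-2B cells, a castration-resistant prostate cancer line derived from LNCaP and grown as 1 established line. They were chosen by the size of their rise or fall with an androgen pathway inhibitor (ARPi), that is from the abiraterone and enzalutamide libraries against the vehicle libraries, so their values in those contrasts are a description with no test. RNA-seq of poly(A) RNA was made from 39 libraries in 13 groups of 3, in a panel and a time course that were scaled and fitted separately. The 7 panel groups were treated for 5 days with the vehicle DMSO, abiraterone acetate at 5 µM (Abi), enzalutamide at 20 µM (Enz), olaparib at 1 µM (Ola), talazoparib at 10 nM (Tala), abiraterone acetate with olaparib at those doses (Abi + Ola) or enzalutamide with talazoparib at those doses (Enz + Tala). The 6 time course groups received DMSO, olaparib at 1 µM or olaparib at 5 µM for 1 day or 5 days. All groups were the same line in the same serum-containing medium and share the mutations of the line, whose parent LNCaP is described by the study as mutated in genes of homologous recombination repair. The labels name no engineered change in any group. The labels do not say that the 3 libraries of a group came from separate cultures, so p-values measure only the spread between these libraries, which may be technical.

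MATN2 encodes matrilin-2, a secreted matrix protein built of von Willebrand factor A domains and EGF-like repeats that joins the filamentous network around cells and is known from fibroblasts and Schwann cells. SLC38A4 encodes SNAT4, a sodium-coupled transporter of neutral amino acids that is best known in the liver. ADAM7 encodes a membrane protein of the disintegrin and metalloprotease family that lacks the residues needed for proteolysis and is known from the epididymis, where it depends on androgen. Abiraterone blocks androgen synthesis through CYP17A1 and enzalutamide blocks androgen signalling, while olaparib and talazoparib inhibit PARP enzymes, which act in DNA repair (PARPi).

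SLC38A4 (ENSG00000139209.16) lies on chromosome 12 of GRCh38 from 46764761 to 46832408 on the minus strand, with 17 exons in its canonical transcript in GENCODE v44. RefSeq holds a promoter entry for this gene, whose RNA reached the counting floor in every group with an ARPi. Its 250 bases before the gene start (GRCh38.p14, chr12:46825998-46826247, minus strand) are shown so that the searched hexamers can be seen in place. This start lies inside the GENCODE gene, downstream of its outermost 5′ end. Capitals mark a TATAAA match that begins at -171 and a TGTTCT match at -95 from the gene start.
SLC38A4 promoter: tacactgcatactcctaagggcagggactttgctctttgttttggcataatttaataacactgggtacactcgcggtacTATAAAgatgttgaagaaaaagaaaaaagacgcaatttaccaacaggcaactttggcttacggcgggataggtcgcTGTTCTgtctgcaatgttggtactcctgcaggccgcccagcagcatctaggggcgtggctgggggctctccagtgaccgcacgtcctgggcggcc

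TGTTCT is the reverse complement of AGAACA, the hexamer that forms each arm of an androgen response element. On both strands, AGAACA occurred in 12.4% and TATAAA in 10.7% of 35116 RefSeq promoter windows of the same length, so neither match sets this window apart. No match to the full palindromic element, AGAACA and its reverse complement with 3 bases of any kind between them, which contains the hexamer and occurred in 1 window of all, or to the forkhead motif TGTTTAC, found in 2.98%, was present in these letters. The window had a GC content of 51.6% against a median of 58.0%.

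In the same annotation MATN2 (ENSG00000132561.14) lies on chromosome 8 from 97868840 to 98036724 on the plus strand, with 19 exons. ADAM7 (ENSG00000069206.15) lies on the other arm of that chromosome from 24440930 to 24526970, plus strand, with 22 exons. Counts are per gene over its exons.

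Library totals ran from 26932205 to 49833473 counts, with medians of 36348316 in the panel and 37545065 in the time course, and no 2 libraries of a group agreed within sampling noise. After a filter on low counts 18625 genes were tested in the panel and 18502 in the time course, and all 3 members passed in both. Luminal prostate markers were expressed in every group, with 7 tested in both experiments and group means of 217 to 516 counts per 1000000 (CPM) for the keratin gene KRT8, 159 to 290 for the homeobox gene HOXB13 and 65.7 to 99.9 for EPCAM. Of 7 known androgen-responsive genes, 6 fell with each ARPi (edgeR), from SLC45A3 at -3.89 and -4.23 on the log2 scale with Abi and Enz to KLK3 at -1.58 and -2.25, and STEAP2 rose by 0.27 and 0.19. Over all genes tested, 52.9% passed an adjusted p of 0.05 with Abi and 53.3% with Enz, in either direction. In bulk RNA, fewer cells with a transcript and less transcript per cell cannot be told apart.

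MATN2 was nearly silent in vehicle cells and abundant in every group with an ARPi. The 3 DMSO libraries of the panel held 12, 12 and 15 counts of MATN2. With Abi they held 797, 720 and 726 counts, and with Enz 907, 1507 and 1374. No ARPi library came near a vehicle library, since the lowest count with an ARPi was 720 and the highest without one was 38 over the other 9 panel libraries. The mean level was 0.379 ± 0.029 CPM (SD, n = 3) with DMSO, 22.8 ± 0.40 with Abi and 32.9 ± 2.65 with Enz. These are differences of 5.90 ± 0.13 and 6.44 ± 0.12 on the log2 scale (SE), or 59.8-fold and 86.6-fold, given without a test because they chose the gene.

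SLC38A4 went the other way, from a moderate level to almost no counts. DMSO libraries held 143, 180 and 225 counts, a level of 5.26 ± 0.42 CPM. Each Abi library held 1 count, and the Enz libraries held 1, 1 and 0. Over the 12 panel libraries with an ARPi, alone or in combination, SLC38A4 had 9 counts in 426599952, and 3 of these libraries had 0, which allows up to 0.0718 CPM in Enz replicate C, 0.109 in Abi + Ola replicate C and 0.0600 in Enz + Tala replicate A. Since every library of these groups was at or under a floor of 3 counts, the fold is a ratio of summed counts per summed library size with its exact interval, which covers counting error only. The ratio to DMSO was 174-fold lower with Abi (95% interval 59.2 to 846) and 303-fold lower with Enz (83.4 to 2507). On the log2 scale the latter was -8.24, and -7.59 without Enz replicate C, a library with 0 counts.

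ADAM7, the most abundant of the 3 genes in vehicle cells, was also almost absent with an ARPi. DMSO libraries held 629, 735 and 854 counts, a level of 21.5 ± 0.15 CPM. Abi left 5, 1 and 6 counts, and Enz left 1, 1 and 0. The gene was 7.42 ± 0.18 lower on the log2 scale with Abi, or 171-fold. With Enz, where it was at the floor, the ratio was 1226-fold lower (339 to 10127), a log2 value of -10.26 that was -9.60 without Enz replicate C. Per kilobase of canonical transcript, ADAM7 stood at 6.37 CPM in DMSO against 1.32 for SLC38A4 and 0.0917 for MATN2. With Enz, MATN2 stood highest at 7.96 CPM per kilobase, and the other two were at the floor with 2 counts each over 3 libraries and have no order.

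**Figure D1:**
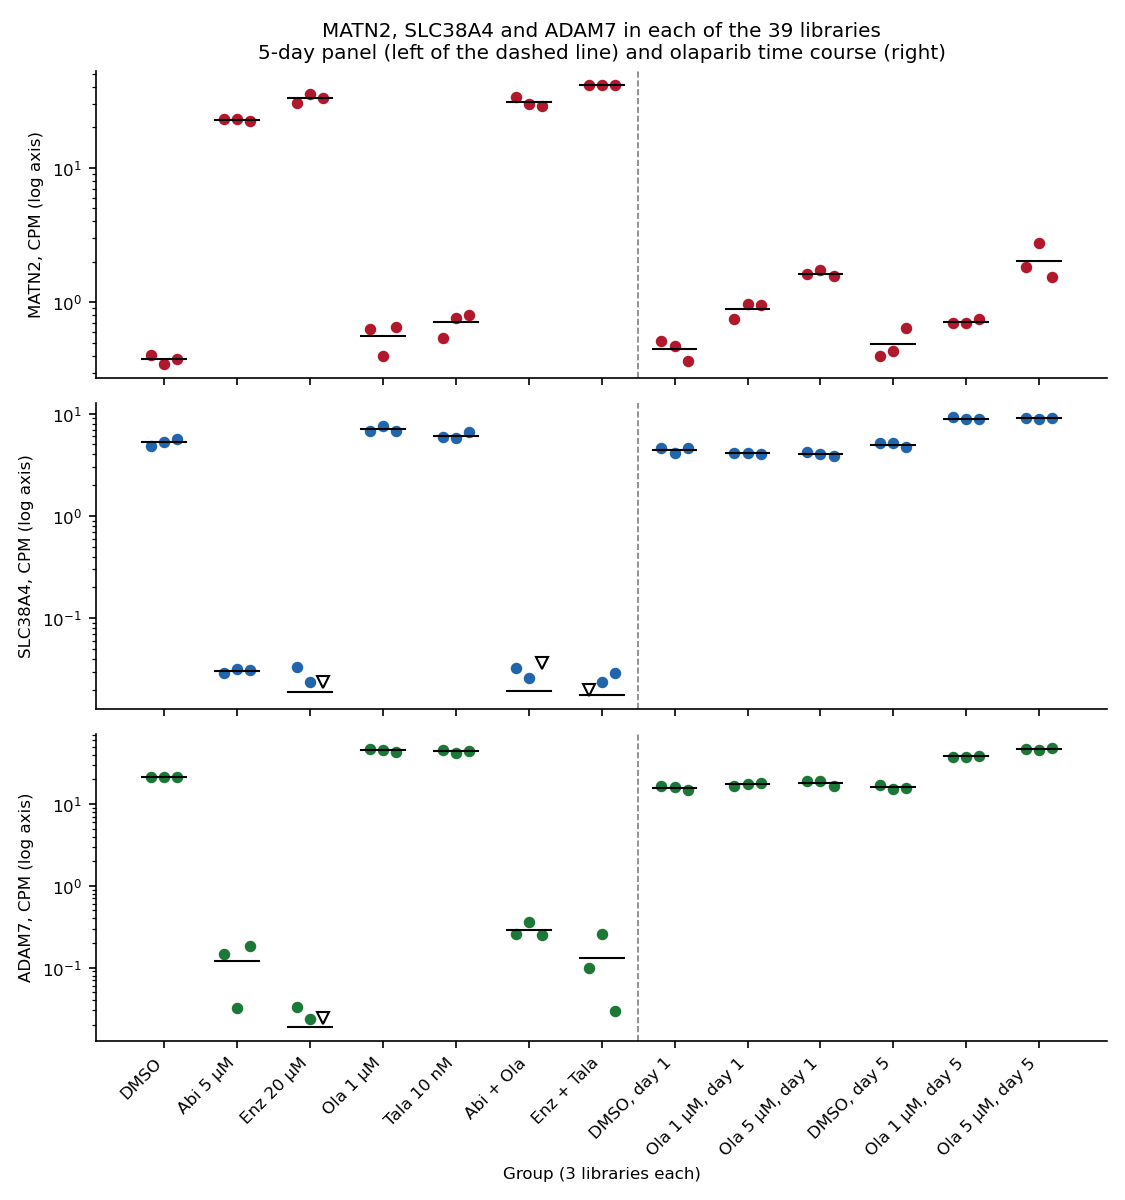
CPM on a log axis of MATN2, SLC38A4 and ADAM7 in each of the 39 libraries, with 3 points and a bar at the mean per group, the panel left of the dashed line and the time course right of it. An open triangle stands for a library with 0 counts and is drawn at the level of 1 count. MATN2 sits between 22.4 and 41.1 CPM in the 12 libraries with an ARPi and at or under 0.806 in the other 9 panel libraries, while SLC38A4 and ADAM7 show the opposite split.

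To place the members, genes past the threshold were ranked by fitted change where the higher group averaged 100 counts or more. MATN2 was rank 2 of 3646 rises with Abi, after PLA2G2A, a secreted phospholipase A2, at 6.67, and before SMOC1 at 5.50, CNTN5 at 5.09 and PREX1 at 5.03. With Enz it was rank 3 of 3915, after NPIPP1, which had 0 counts in DMSO, and PLA2G2A at 6.94, and before PREX1 at 5.70 and CAMK2N1 at 4.26. ADAM7 and SLC38A4 were ranks 2 and 3 of 4518 falls with Abi, between SLC2A3, the glucose transporter GLUT3, and a gene without a symbol (ENSG00000230393), and the steroid reductase gene AKR1D1 followed at -6.02. They were ranks 3 and 4 of 4305 with Enz, after SLC2A3 and the olfactory receptor gene OR5B2 and before AKR1D1. The order among genes at the floor rests on fitted values and is approximate.

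The combination arms measured the same drugs in libraries that the choice of the genes had not used. MATN2 held 24, 14 and 23 counts with Ola and 1032, 1159 and 792 with Abi + Ola. It rose by 5.76 ± 0.11 on the log2 scale (95% interval 5.53 to 5.99, edgeR quasi-likelihood test, Benjamini-Hochberg adjusted p = 1.33e-30), in 3 of 3 libraries, where 56.6% of all genes tested were called. With Tala it held 19, 31 and 38 counts and with Enz + Tala 2053, 1738 and 1400, a rise of 5.83 ± 0.10 (5.62 to 6.04, edgeR adjusted p = 2.79e-32), where 58.8% were called. The lowest combination library, at 792 counts, stood far above the highest PARPi library, at 38. The levels were 30.7 ± 2.55 CPM with Abi + Ola and 41.0 ± 0.055 with Enz + Tala.

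ADAM7 fell from 1782, 1627 and 1485 counts with Ola to 8, 14 and 7 with Abi + Ola. The fall was -7.22 ± 0.14 (-7.51 to -6.94, edgeR adjusted p = 6.01e-31), or 149-fold. Tala libraries held 1591, 1682 and 2100 counts and Enz + Tala libraries 5, 11 and 1, a change of -8.32 ± 0.15 (-8.62 to -8.02, edgeR adjusted p = 4.59e-32), or 319-fold. Enz + Tala replicate B held 11 of those counts, and without it the change was -9.18. SLC38A4 held 258, 268 and 234 counts with Ola and 208, 234 and 310 with Tala, and 1, 1 and 0 and 0, 1 and 1 in the 2 combinations. It was 341-fold lower with Abi + Ola than with Ola (95% interval of the ratio 94.0 to 2817, edgeR adjusted p = 7.09e-22) and 389-fold lower with Enz + Tala than with Tala (107 to 3219, edgeR adjusted p = 2.73e-22). The latter was -8.60 on the log2 scale, and -7.86 without Enz + Tala replicate A, a library with 0 counts. For all 3 genes the lowest and highest libraries of the groups did not overlap in either comparison.

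**Figure D2:**
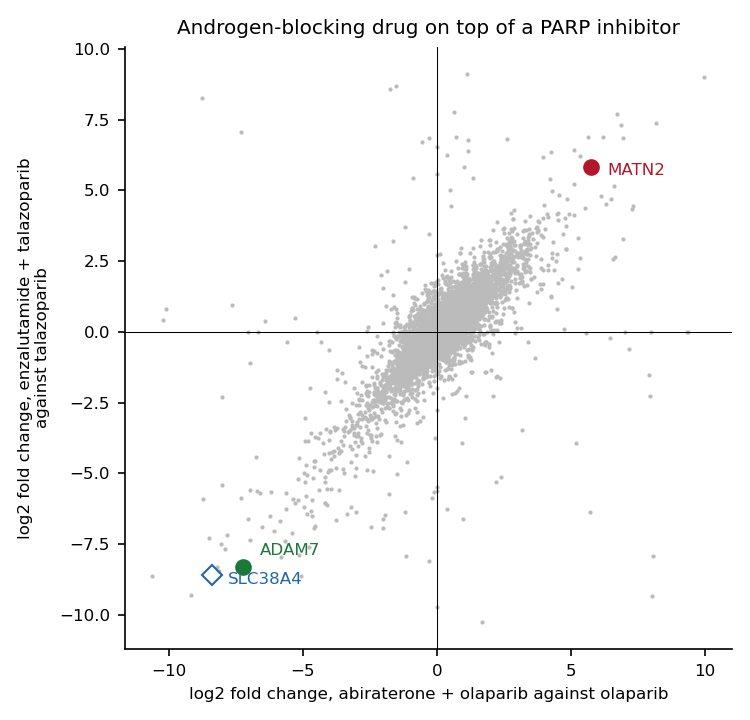
Fitted log2 fold change of each gene tested in the panel for abiraterone added to olaparib (x axis) and enzalutamide added to talazoparib (y axis), with MATN2, ADAM7 and SLC38A4 marked, the last as an open diamond at its count ratio. MATN2 lies at 5.76 and 5.83, ADAM7 at -7.22 and -8.32, and SLC38A4 close to ADAM7.

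The 2 combinations differed in MATN2, which was 0.42 ± 0.061 higher on the log2 scale with Enz + Tala than with Abi + Ola (0.29 to 0.54, edgeR adjusted p = 4.98e-06), against 12.5% of all genes called. ADAM7 was lower by 1.13 ± 0.43 with Enz + Tala, which did not pass (-2.02 to -0.25, edgeR adjusted p = 0.0796). This comparison rests on 1 library, since without Enz + Tala replicate B it stood at -2.01 with an edgeR adjusted p of 0.00755. SLC38A4 was at the floor in both groups and has no fold. As a description, MATN2 was higher with Enz than with Abi by 0.53 ± 0.063, higher with Abi + Ola than with Abi by 0.43 ± 0.064 and higher with Enz + Tala than with Enz by 0.31 ± 0.060, all without overlap of the libraries. ADAM7 was higher with Abi + Ola than with Abi by 1.27 ± 0.47, on counts of 7 to 14 against 1 to 6, and its ratio was 6.96-fold lower with Enz than with Abi (1.55 to 64.1) and 7.67-fold higher with Enz + Tala than with Enz (1.82 to 68.4). These ratios moved by over 1.5 times with 1 library left out. The first was -2.80 on the log2 scale and -2.14 without Enz replicate C, and the second was 2.94, 2.28 without Enz replicate C and 2.04 without Enz + Tala replicate B. The difference between Abi + Ola and Abi was 0.85 without Abi replicate B. The departure of the combination from the sum of its drugs was -0.14 ± 0.29 for MATN2 and 0.20 ± 0.50 for ADAM7 with Abi + Ola, both smaller than their SE. For MATN2 it was -0.61 ± 0.26 with Enz + Tala.

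PARPi alone went with much smaller differences, and all means were above that of DMSO. These comparisons share the DMSO libraries with the contrasts that chose the genes. ADAM7 rose from 21.5 CPM to 45.1 ± 2.30 with Ola, by 1.07 ± 0.071 on the log2 scale (edgeR adjusted p = 2.44e-14), and to 43.98 ± 2.03 with Tala, by 1.03 ± 0.071 (edgeR adjusted p = 9.58e-14), or 2.10-fold and 2.05-fold, in 3 of 3 libraries each. Of all genes, 35.6% were called with Ola and 33.8% with Tala. SLC38A4 rose to 7.02 ± 0.48 CPM with Ola, by 0.41 ± 0.15 (edgeR adjusted p = 0.0306), a call that was lost without any 1 of 5 of the 6 libraries compared. With Tala it stood at 6.12 ± 0.40 CPM, a difference of 0.22 ± 0.15 (edgeR adjusted p = 0.299), although the 3 libraries lay above the 3 of DMSO. MATN2 stood at 0.562 ± 0.145 CPM with Ola, a difference of 0.57 ± 0.28 (edgeR adjusted p = 0.114), and it rose to 0.707 ± 0.141 with Tala, by 0.92 ± 0.25 (edgeR adjusted p = 0.00434). Without Ola replicate B, the lowest library at 14 counts, the difference with Ola was 0.75 (edgeR adjusted p = 0.0493).

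Olaparib at 1 µM and talazoparib at 10 nM were not told apart by any of the 3 genes, where 8.36% of all genes were called. That share is 1557 genes, which became 595 to 1035 without Ola replicate A, B or C or Tala replicate B or C. The difference of Tala from Ola was 0.35 for MATN2 (95% interval -0.11 to 0.81, edgeR adjusted p = 0.413), -0.20 for SLC38A4 (-0.50 to 0.11, edgeR adjusted p = 0.491) and -0.038 for ADAM7 (-0.17 to 0.098, edgeR adjusted p = 0.814). For SLC38A4 the 3 Tala libraries lay below the 3 of Ola, although the test did not pass. The interval was narrow for ADAM7 and widest for MATN2, the gene with the fewest counts.

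In the time course MATN2 rose within 1 day of olaparib at both doses, and no change of SLC38A4 was detected on that day. After 1 day MATN2 held 18, 20 and 14 counts with DMSO, 29, 40 and 39 with 1 µM and 63, 61 and 58 with 5 µM. It rose by 0.98 ± 0.25 at 1 µM (edgeR adjusted p = 0.00521) and by 1.86 ± 0.24 at 5 µM (edgeR adjusted p = 3.21e-08), or 1.97-fold and 3.63-fold, with 15.8% and 45% of all genes called. The groups rose in order of dose without overlap, and 5 µM stood above 1 µM by 0.88 ± 0.22 (edgeR adjusted p = 0.00159), where 28.8% of all genes were called. SLC38A4 held 161, 176 and 179 counts with DMSO, 161, 170 and 167 with 1 µM and 164, 143 and 144 with 5 µM. Its differences from DMSO were -0.12 (-0.30 to 0.058, edgeR adjusted p = 0.425) and -0.14 (-0.32 to 0.042, edgeR adjusted p = 0.235). ADAM7 held 578, 679 and 575 counts with DMSO, 637, 729 and 745 with 1 µM and 737, 671 and 607 with 5 µM. It rose by 0.20 ± 0.056 at 5 µM (edgeR adjusted p = 0.00394) with overlapping libraries, and stood 0.14 ± 0.055 higher at 1 µM, which did not pass (edgeR adjusted p = 0.092) but did with total count scaling.

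After 5 days SLC38A4 and ADAM7 rose at both doses. SLC38A4 held 232, 189 and 184 counts with DMSO, 348, 324 and 315 with 1 µM and 325, 313 and 322 with 5 µM. It rose by 0.85 ± 0.081 at either dose (edgeR adjusted p = 3.65e-11 and 1.05e-11), or 1.80-fold, where 46.3% and 68.2% of all genes were called. The step from 1 to 5 µM was 0.0018 (-0.15 to 0.16, edgeR adjusted p = 0.988), so that a further change by dose was not detected within that interval, where 53.6% of all genes were called. ADAM7 held 766, 565 and 607 counts with DMSO, 1401, 1383 and 1398 with 1 µM and 1670, 1637 and 1699 with 5 µM. It rose by 1.25 ± 0.050 and 1.55 ± 0.049 (edgeR adjusted p = 1.08e-21 and 4.84e-26), or 2.38-fold and 2.93-fold, and unlike SLC38A4 it rose again between the doses, by 0.30 ± 0.044 (edgeR adjusted p = 2.67e-07). MATN2 held 18, 16 and 25 counts with DMSO, 26, 26 and 27 with 1 µM and 65, 98 and 55 with 5 µM. The difference at 1 µM was 0.55 ± 0.26 (edgeR adjusted p = 0.0736), which passed without DMSO day 5 replicate 3 at 0.79 (edgeR adjusted p = 0.0232), and at 5 µM MATN2 rose by 2.05 ± 0.23 (edgeR adjusted p = 5.18e-10), or 4.15-fold. From 1 to 5 µM it rose by 1.501 ± 0.22 (edgeR adjusted p = 3.32e-07).

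Vehicle cells at day 5 and day 1 were not told apart by MATN2 (0.12, -0.43 to 0.67), SLC38A4 (0.16, -0.011 to 0.34) or ADAM7 (0.017, -0.097 to 0.13), with edgeR adjusted p-values of 0.804, 0.174 and 0.874 and 24.5% of all genes called. For SLC38A4 the vehicle libraries of day 5 lay above those of day 1 in CPM without overlap. The effect of olaparib at day 5 minus that at day 1 was 0.97 ± 0.12 for SLC38A4 and 1.11 ± 0.075 for ADAM7 at 1 µM (edgeR adjusted p = 3.83e-08 and 1.64e-14), where 29.8% of all genes were called. At 5 µM it was 0.99 ± 0.12 and 1.36 ± 0.074 (edgeR adjusted p = 7.41e-09 and 5.28e-18), where 54.9% were called. For MATN2 it was -0.43 (-1.16 to 0.30, edgeR adjusted p = 0.416) at 1 µM and 0.20 (-0.49 to 0.88, edgeR adjusted p = 0.655) at 5 µM. SLC38A4 and ADAM7 thus responded more at day 5 than at day 1, while no such change was detected for MATN2. The panel and the time course both held cells given 1 µM olaparib for 5 days, and the log2 difference from their own DMSO was 1.07 and 1.25 for ADAM7, 0.41 and 0.85 for SLC38A4 and 0.57 and 0.55 for MATN2. These pairs come from separate fits and were not tested against each other.

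**Figure D3:**
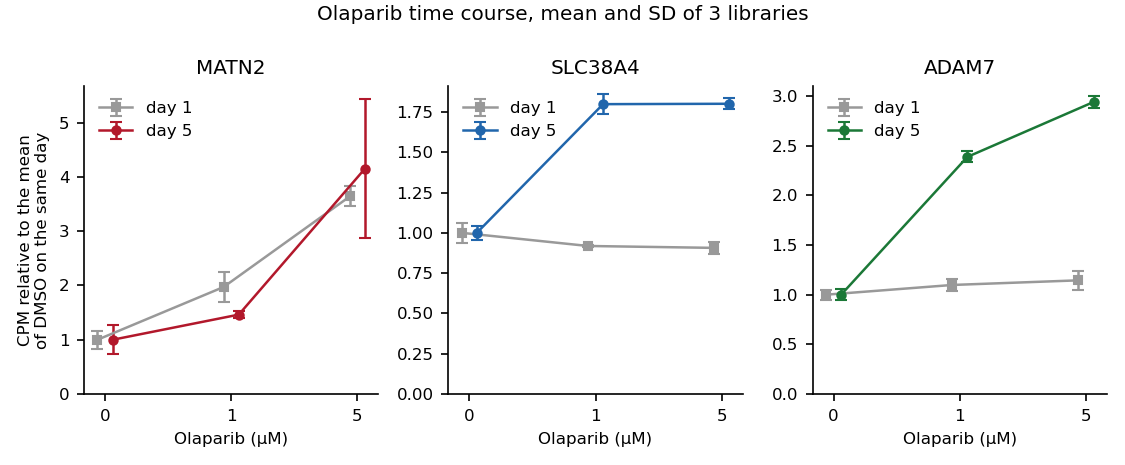
Mean CPM relative to the mean of DMSO on the same day against olaparib dose in µM (categories evenly spaced) for MATN2, SLC38A4 and ADAM7, in grey at day 1 and in colour at day 5, with bars for the SD of 3 libraries. MATN2 climbs with dose on both days, reaching 3.63-fold and 4.15-fold in the fit, SLC38A4 climbs at day 5 to the same 1.80-fold at both doses, and ADAM7 climbs at day 5 with both dose steps.

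Set in order within the panel, MATN2 ran from Enz + Tala (41.0 to 41.1 CPM over its libraries) through Enz (30.2 to 35.5), Abi + Ola (28.7 to 33.6), Abi (22.4 to 23.2), Tala (0.545 to 0.806) and Ola (0.395 to 0.659) to DMSO (0.349 to 0.408). Enz and Abi + Ola overlapped, as did Tala and Ola, and Ola and DMSO. SLC38A4 ran from Ola (6.70 to 7.57 CPM) through Tala (5.81 to 6.57) and DMSO (4.86 to 5.70) to the 4 groups with an ARPi, which were all at the floor and have no order. ADAM7 ran from Ola (42.5 to 46.9 CPM) and Tala (41.7 to 45.7), which overlapped, through DMSO (21.4 to 21.6) to Abi + Ola (0.254 to 0.361), Enz + Tala (0.0293 to 0.259), Abi (0.0318 to 0.185) and Enz (0 to 0.0334), where each neighbour overlapped the next. In the time course MATN2 was highest with 5 µM at day 5 (1.55 to 2.75 CPM) and at day 1 (1.56 to 1.73), which overlapped. SLC38A4 and ADAM7 were highest in the groups with olaparib for 5 days, at 8.78 to 9.33 CPM and 37.5 to 47.8 CPM.

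Genes with the pattern most like each member were sought by Pearson's r over the 13 group means of log2 CPM, among 13059 genes. Closest to MATN2 was CHST15, a chondroitin sulfate sulfotransferase, at an r of 0.989, followed by PLA2G2A, CXXC5, PHC1 and FBXO2. Closest to SLC38A4 was the elongation factor gene ELL2 at 0.997, followed by AP2S1, ENSG00000286598, the BMP receptor gene BMPR1B and the coagulation factor gene F5. Closest to ADAM7 was UGT2B28, an androgen glucuronidation enzyme, at 0.997, followed by MBOAT2, UGT2B11, OR5B2 and the complement gene C2. An r above 0.9 was common, with 593, 815 and 715 genes for MATN2, SLC38A4 and ADAM7, so these names are a description of a shared split between groups with and without an ARPi. Between the members r was -0.957 for MATN2 and SLC38A4, -0.939 for MATN2 and ADAM7, and 0.989 for SLC38A4 and ADAM7. The choice of the genes fixes most of these values, and libraries of 1 experiment share scaling and vehicle.

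The genes most alike in pattern differed in the size of their change. Added to Ola, Abi raised PLA2G2A by 5.36 ± 0.20 on the log2 scale (edgeR adjusted p = 1.79e-18), close to MATN2, but CHST15 by 1.78 ± 0.19 and PHC1 by 1.28 ± 0.052. F5 fell by 4.95 ± 0.10, ELL2 fell by 2.79 ± 0.038, and AP2S1, an adaptor subunit of clathrin vesicles, fell by 0.68 ± 0.039 (edgeR adjusted p = 7.27e-17). UGT2B28 fell by 4.19 ± 0.090 and MBOAT2 fell by 2.12 ± 0.031, against -7.22 for ADAM7. At day 5 of the time course UGT2B28 rose by 0.76 ± 0.044 at 1 µM and 0.94 ± 0.043 at 5 µM (edgeR adjusted p = 1.57e-13 and 3.52e-16). Of the 6 androgen-responsive genes that fell with an ARPi, 6 rose at 1 µM on that day and 5 at 5 µM, where 46.3% and 68.2% of all genes were called in either direction. The exception was SLC45A3, which rose by 0.096 ± 0.025 at 1 µM and fell by 0.70 ± 0.025 at 5 µM (edgeR adjusted p = 0.00159 and 5.60e-24).

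Matrix genes of a list of 22 were read beside MATN2. Of these 22 matrix glycoprotein genes, 14 were tested in the panel, and with Abi added to Ola 6 rose and 2 fell, while with Enz added to Tala 5 rose and 3 fell. These 8 of 14 in each are near the background of 56.6% and 58.8% of all genes called. The medians were 0.15 and 0.12, against 0.0020 and 0.0076 over all genes. FN1, fibronectin, rose by 1.26 ± 0.035 and 0.61 ± 0.035, and FBLN1, fibulin-1, by 1.22 ± 0.38 and 1.19 ± 0.37. FBN1, the fibrillin of elastic microfibrils, fell by 0.83 ± 0.30 and 1.39 ± 0.30, and THBS1, thrombospondin-1, fell by 0.97 ± 0.086 and 2.17 ± 0.097. MATN3, named after its values were seen as the other matrilin gene tested, stood at -0.05 ± 0.26 and -0.46 ± 0.25 and did not pass (edgeR adjusted p = 0.878 and 0.112). With 5 µM olaparib for 5 days, 7 of 13 matrix genes tested rose and 4 fell, where 68.2% of all genes were called, with THBS1 higher by 3.24 ± 0.039 and MATN3 lower by 1.48 ± 0.37.

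Markers of cells known for MATN2 were measured beside it. The 8 fibroblast markers summed to 12.1 to 16.1 CPM in DMSO libraries, 20.1 to 21.9 with Abi, 20.0 to 20.9 with Enz, 23.2 to 24.4 with Abi + Ola and 23.5 to 23.9 with Enz + Tala, against 16.9 to 18.4 with Ola and 15.4 to 16.8 with Tala. In each of these groups 4 to 6 of the 8 markers were at or under 3 counts in every library, and 3 were tested. Of these, COL1A1 rose by 0.46 ± 0.068 and 0.59 ± 0.067 in the 2 comparisons with a PARPi background. COL3A1 rose by 2.36 ± 0.43 and 2.72 ± 0.48, from very low levels of 0.136 CPM with Ola and 0.0748 with Tala. The third, PDGFRB, fell by 0.45 ± 0.19 with Abi added to Ola (edgeR adjusted p = 0.0421) and stood at 0.0090 ± 0.18 with Enz added to Tala (edgeR adjusted p = 0.972). The 5 Schwann cell markers summed to 0.204 to 0.532 CPM with DMSO and 0.586 to 1.08 in the groups with an ARPi, with 2 of the 5 at or under 3 counts. With Ola they summed to 0.527 to 0.573 CPM and with Tala to 0.571 to 0.848, which overlapped the groups with an ARPi. Of 2 tested, 0 passed in the 2 comparisons with a PARPi background, where 56.6% and 58.8% of all genes were called. With 5 µM olaparib at day 5, where MATN2 rose, the fibroblast sum was 14.2 to 14.8 CPM against 13.7 to 14.2 with DMSO. The part of these markers in the rise of MATN2 was not tested.

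The other genes of the SLC38 family moved in both directions. Of these 10 SLC38 genes, 7 were tested, and with Abi added to Ola 2 rose and 3 fell, with Enz added to Tala 3 rose and 2 fell, against 56.6% and 58.8% of all genes called. The medians were 0.0029 and -0.061, against 0.0020 and 0.0076 over all genes. SLC38A1 and SLC38A2, which encode the system A transporters SNAT1 and SNAT2, fell in both, by 0.56 ± 0.024 and 0.49 ± 0.024 and by 0.99 ± 0.026 and 0.99 ± 0.026. SLC38A3, the glutamine transporter SNAT3, rose by 1.42 ± 0.25 and 2.37 ± 0.24, and SLC38A9, an arginine sensor of the lysosome, rose by 0.86 ± 0.055 and 0.95 ± 0.053 (edgeR adjusted p at most 8.64e-06 for both genes). SLC38A10 rose by 0.13 ± 0.036 in the second comparison, SLC38A7 fell by 0.15 ± 0.043 in the first, and SLC38A6 passed in neither. With olaparib at day 5, 4 of the 7 rose and 1 fell at 1 µM, and 4 rose and 2 fell at 5 µM, where 46.3% and 68.2% of all genes were called. SLC38A7 rose by 0.26 ± 0.038 and 0.44 ± 0.037, SLC38A9 by 0.15 ± 0.051 and 0.25 ± 0.051, SLC38A10 by 0.078 ± 0.031 and 0.30 ± 0.031 and SLC38A2 by 0.094 ± 0.027 and 0.14 ± 0.027, against 0.85 for SLC38A4 at either dose. SLC38A1 fell by 0.29 ± 0.028 at 1 µM and fell by 0.50 ± 0.028 at 5 µM, and SLC38A3 fell by 1.23 ± 0.38 at 5 µM.

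Of 22 further amino acid transporter genes, 19 were tested, and 3 rose and 14 fell with Abi added to Ola (median -0.48), 3 rose and 9 fell with Enz added to Tala (median -0.096). Of all genes 56.6% and 58.8% were called, with medians of 0.0020 and 0.0076. SLC43A1, a transporter of large neutral amino acids, fell by 2.08 ± 0.034 in the first comparison and fell by 1.88 ± 0.032 in the second, and the glutamate transporter gene SLC1A2 by 0.82 ± 0.26 and 1.02 ± 0.25. SLC7A2, a carrier of cationic amino acids, fell by 0.59 ± 0.059 and 0.40 ± 0.056. SLC7A7 rose by 1.60 ± 0.30 and 1.17 ± 0.31 (edgeR adjusted p = 2.55e-05 and 0.00116). The log2 ratio of SLC38A4 in these comparisons was -8.41 and -8.60. Of 7 liver markers, of cells known for SLC38A4, 4 were tested. They summed to 55.5 to 61.3 CPM in DMSO libraries of the panel and to 65.7 to 81.7 in the 12 libraries with an ARPi, where SLC38A4 was at the floor. With olaparib at day 5, 3 of the 4 rose at 1 µM and 2 at 5 µM, among 46.3% and 68.2% of all genes called, and 3 rose with Tala and 2 with Ola, among 33.8% and 35.6%. TTR, the plasma carrier transthyretin, rose by 1.90 ± 0.16 and 2.46 ± 0.16 at the 2 doses of day 5, and SERPINA1, alpha-1-antitrypsin, by 3.07 ± 0.58 and 4.28 ± 0.53. The 7 liver markers summed to 64.8 to 68.2 CPM at 1 µM and 60.6 to 64.7 at 5 µM on day 5, against 55.4 to 56.9 with DMSO. On day 1, where no change of SLC38A4 was detected, they summed to 59.2 to 60.0 and 64.2 to 65.6, against 50.5 to 55.0. The part of these markers in the rise of SLC38A4 was not tested.

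Among 20 other genes of the ADAM family, 12 were tested, and 4 rose and 3 fell in each of the 2 comparisons, a share near the 56.6% and 58.8% of all genes called. The medians were 0.22 and 0.25, against 0.0020 and 0.0076 over all genes. ADAM28, which lies close to ADAM7 on the chromosome, fell most of these 12, with changes of -2.50 ± 0.34 and -2.93 ± 0.33 (edgeR adjusted p = 8.90e-08 and 1.66e-09). It also rose with Ola by 0.73 ± 0.29, with Tala by 0.93 ± 0.29 and at day 5 of the time course by 1.16 ± 0.20 and 1.00 ± 0.20. Of 12 tested in each experiment, 6 rose and 0 fell with Ola and with Tala, where 35.6% and 33.8% of all genes were called. At day 5 of the time course 5 rose at 1 µM and 9 at 5 µM, and 0 fell, where 46.3% and 68.2% were called. With an ARPi added to a PARPi, ADAM9 fell by 0.79 ± 0.027 and 0.91 ± 0.027. ADAM10, a sheddase of many membrane proteins, rose by 0.69 ± 0.030 and 0.54 ± 0.030, and ADAM22, which like ADAM7 lacks protease activity, rose by 0.87 ± 0.061 and 0.96 ± 0.058. ADAM15 rose by 0.25 ± 0.033 and 0.35 ± 0.032, while ADAM23, ADAM11, ADAM12 and ADAM17 each passed in 1 comparison and ADAM8, ADAM21 and ADAM32 in neither. The 10 epididymis markers summed to 0.024 to 0.506 CPM over all libraries, with 5 of them at 0 in every library and 7 at or under 3 counts, so ADAM7 was counted in cells in which the defining genes of the epididymis were at or near 0.

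**Figure D4:**
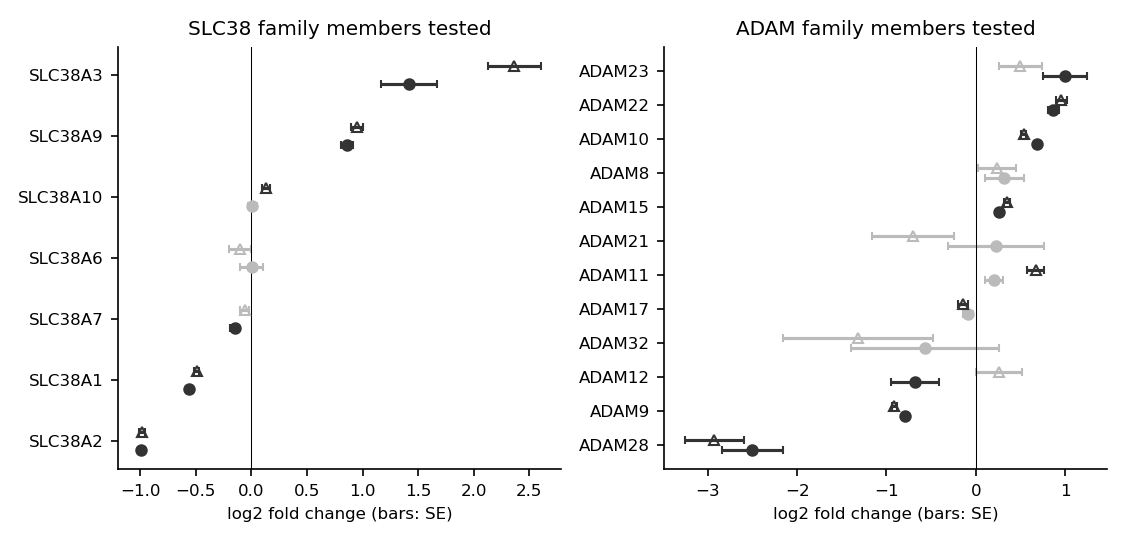
Log2 fold change with SE bars of the tested SLC38 genes (left) and ADAM genes (right) other than the members, for Abi + Ola against Ola (filled circles) and Enz + Tala against Tala (open triangles), with genes under an adjusted p of 0.05 in dark grey and others in light grey. SLC38A3 is highest at 1.42 and 2.37 and ADAM28 lowest at -2.50 and -2.93, and none reaches the -7.22 and -8.32 of ADAM7.

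Genes beside the 3 members on the chromosome were read in the same comparisons. ADAM28, 81916 bases from ADAM7, was the one tested neighbour of ADAM7 that fell by more than 1 on the log2 scale, while STC1 rose by 1.59 ± 0.13 and 0.48 ± 0.13, NEFL fell by 0.54 ± 0.21 and 0.69 ± 0.21 and DOCK5 rose by 0.32 ± 0.051 and 0.30 ± 0.050. Next to SLC38A4, on the side away from SLC38A2 and SLC38A1, the adhesion gene AMIGO2 rose by 4.12 ± 0.29 and 4.17 ± 0.27 (edgeR adjusted p = 1.14e-14 and 1.08e-15) at 243299 bases and PCED1B rose by 2.59 ± 0.39 and 3.06 ± 0.36 at 247195 bases. SLC38A4 thus fell beside 2 genes that rose. SCAF11 and RPAP3 stood between 0.01 and 0.04. Near MATN2, LAPTM4B rose by 0.55 ± 0.048 and 0.71 ± 0.045, MTDH fell by 0.56 ± 0.027 and 0.48 ± 0.027, POP1 fell by 0.57 ± 0.051 and 0.51 ± 0.049 and RIDA passed in neither comparison.

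Each member shares its span with a gene on the other strand, and the libraries marked strand by dUTP. RPL30, a ribosomal protein gene that overlaps MATN2, stood at -0.02 ± 0.027 and 0.02 ± 0.026 and passed in neither comparison. SLC38A4-AS1 fell by 0.94 ± 0.14 and 1.13 ± 0.14 (edgeR adjusted p = 9.09e-07 and 1.58e-08), a far smaller fall than that of SLC38A4. ADAM7-AS1 was at the floor of 3 counts in the groups with an ARPi and rose with Ola by 1.32 ± 0.45 (edgeR adjusted p = 0.0194) and with 5 µM olaparib at day 5 by 1.58 ± 0.35 (edgeR adjusted p = 0.000146). ADAM7-AS2 did not pass the filter on low counts. Whether the counting used the strand is not given in the sources used here, so a small share of reads between these partners cannot be told apart.

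**Figure D5:**
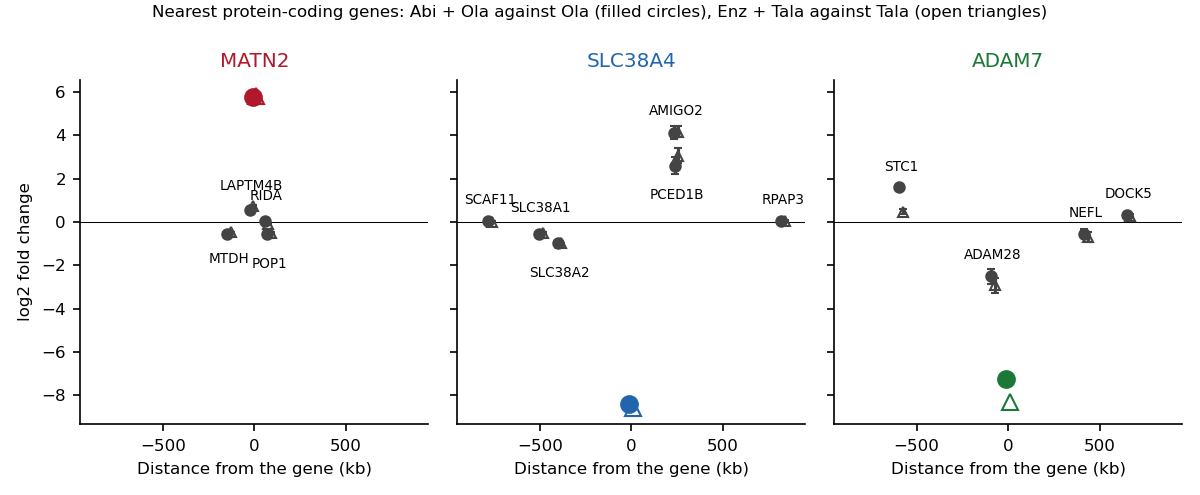
Log2 fold change with SE bars of the nearest protein-coding genes tested against their distance in kilobases from MATN2, SLC38A4 and ADAM7 at 0, for Abi + Ola against Ola (filled circles) and Enz + Tala against Tala (open triangles), with pairs set slightly apart. MATN2 stands alone near 5.8, AMIGO2 at 4.12 and 4.17 rises beside SLC38A4, and ADAM28 at -2.50 and -2.93 falls beside ADAM7.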

How the data were processed

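RNA-seq was made from total RNA of 39 C4-2B libraries with a stranded poly(A) kit that marks strand by dUTP, as the labels state. The authors trimmed reads with Trim Galore 0.6.7 in nf-core/rnaseq 3.14.0, aligned them to GRCh38 with STAR and quantified genes with Salmon on GENCODE v45, and they deposited estimated counts per gene (expected counts) as whole numbers, with the rounding not stated. Replicates were not pooled. Groups came from the sample titles. Positions, neighbours and symbols came from GENCODE v44, in which 62030 gene IDs matched with their version, 636 without it and 521 did not. The SLC38A4 promoter sequence is from RefSeq on GRCh38.p14, where 1 of the 3 members was matched. Coordinates are 1-based.

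The 21 panel and 18 time course libraries were each fitted once, with all groups sharing 1 estimate of the spread, by edgeR 4.0.16 in R 4.3.3 (TMM scaling, filterByExpr by group, robust glmQLFit, glmQLFTest), with Benjamini-Hochberg adjustment over all genes tested and a threshold of 0.05, two-sided. A log2 fold change (prior count 0.125) is given with its SE and 95% interval. CPM are counts per 1000000 of the TMM-scaled library size. Where all libraries of a group held at most 3 counts, the summed counts per summed scaled size were compared, with an exact conditional binomial interval, and no fold was given where both groups did. Intervals of ratios and limits at 0 counts cover counting error only. Depth was 26932205 to 49833473 counts per library, so that 1 count in the panel is 0.0200 to 0.0362 CPM. The fit was tested on simulated data.

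The members and gene lists were chosen with earlier results of these data known, and the DMSO, Abi and Enz libraries chose the members, so no p is given for them where Abi or Enz alone enters. Named genes are the members, the 5 largest rises and falls with Abi or Enz among genes passing the test and averaging 100 counts or more where higher, the 5 genes most like each member by Pearson's r over the 13 group means of log2 CPM (prior count 2), the 3 largest changes of each list with Abi or Enz, all tested SLC38 and ADAM genes and androgen-responsive genes, and the 3 nearest protein-coding genes on each side. Alternatives were RLE and total count scaling, no filter, DESeq2 1.42.0, a fit of only the groups compared, a replicate block, a prior count of 2 and each library left out. Some genes of the marker and androgen-responsive lists are not reported here.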

Additional observations from a re-analysis of the deposited data

Results flagged for a closer look

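The effect of olaparib differed between day 5 and day 1 for 2 of the 3 genes, by the interaction term of the edgeR quasi-likelihood fit. For SLC38A4 the effect at day 5 minus that at day 1 was 0.966 on the log2 scale at 1 µM and 0.986 at 5 µM (Benjamini-Hochberg adjusted p = 3.83e-08 and 7.41e-09). For ADAM7 it was 1.114 at 1 µM and 1.356 at 5 µM (adjusted p = 1.64e-14 and 5.28e-18). For both genes, 6 of 6 olaparib libraries at day 5 stood above the 3 vehicle libraries of that day. In MATN2, where the same terms were -0.43 and 0.20, no such difference passed (adjusted p = 0.416 and 0.655).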

How the results depend on the processing

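Over RLE and total count scaling, no filter on low counts, DESeq2, a fit of only the groups compared, a replicate block and a prior count of 2, 397 of 407 values of the members kept their direction and their side of the threshold or, where no test was given, also moved by less than the SD between replicates, as did 389 of 408 values with 1 library left out. The rise of SLC38A4 with olaparib in the panel was lost with total count scaling (0.37, adjusted p = 0.0525), without the filter (0.42, adjusted p = 0.057) and without any 1 of the libraries compared except DMSO replicate C, with values of 0.34 to 0.47 over the 6 left out in turn. The ADAM7 difference at 1 µM and day 1 passed with total count scaling (0.16) and without the filter (0.14). A prior count of 2 moved MATN2 to 5.72 with Abi and 6.26 with Enz and turned the ADAM7 departure with Abi + Ola to -0.070, which ran from -0.23 to 0.61 with 1 library left out and was below 0 without Abi replicate B or Abi + Ola replicate B. The SLC38A4 step from 1 to 5 µM turned to 0.0045 at day 1 with total count scaling, and at day 5 to -0.058 with that scaling and -0.00068 in a fit of only the groups compared. With 1 library left out it ran from -0.047 to 0.010 at day 1 and from -0.015 to 0.031 at day 5. Left-out libraries moved MATN2 between 0.44 and 0.75 with Ola against DMSO, between 0.41 and 0.79 with 1 µM at day 5, between -0.11 and 0.27 in vehicle cells by day and between -0.071 and 0.43 in the interaction at 5 µM. They moved ADAM7 between -0.079 and 0.0010 for Tala against Ola, between -2.01 and -0.77 for Enz + Tala against Abi + Ola and between -0.030 and 0.044 in vehicle cells by day. For these changes the cause was not tested.

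Replicate letters and numbers did not pair the libraries. Correlations of same-numbered deviations ran from -0.069 to 0.064 over 63 pairs in the panel and from -0.13 to 0.12 over 45 in the time course, and 3 of 21 and 3 of 18 libraries correlated best with their own number. The replicate block changed no call of the 3 genes, with SLC38A4 in the panel at 0.42 with Ola (adjusted p = 0.0368). A log2 change of at least 1 as a further condition lowered the count of called genes from 9853 to 1959 with Abi, 9919 to 2059 with Enz, 10535 to 2099 with Abi added to Ola, 10946 to 2151 with Enz added to Tala, 6638 to 502 with Ola, 6300 to 463 with Tala, 1557 to 17 for Tala against Ola and 2337 to 125 for Enz + Tala against Abi + Ola. In the time course it lowered them from 2928 to 118 and 8333 to 659 at 1 and 5 µM on day 1, 8566 to 738 and 12627 to 3038 on day 5, 5324 to 287 and 9909 to 1235 between the doses, 4536 to 147 between the vehicle days and 5510 to 433 and 10156 to 2243 in the interactions. The 1557 genes for Tala against Ola were 595 to 1035 without Ola replicate A, B or C or Tala replicate B or C, and the 2928 at 1 µM and day 1 were 1932 without DMSO day 1 replicate 1. Total count scaling shifted the median of all genes by up to 0.131 on the log2 scale, in the interaction at 5 µM, and turned no named gene that passed except MBOAT2 and RPL30 in the dose step at day 5. The 5 genes most like a member were not stable, with 0 to 2 shared when r was taken over the 21 panel libraries or replaced by Spearman's rho. Depth limits SLC38A4 and ADAM7 with an ARPi, where libraries held 0 to 14 counts and single counts set the size of the ratio.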
